A study of Mus musculus with 9 samples.

Results

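The AP-1 FOS and JUN family is a group of transcription factors that bind DNA as pairs through a basic leucine zipper. Its 10 genes here were *Fos*, *Fosb*, *Fosl1*, *Fosl2*, *Jun*, *Junb*, *Jund*, *Batf*, *Batf3* and *Jdp2*, out of 54432 genes in the table. The family was chosen by the measured values of 1 of its genes, the large rise of *Fosl1* in macrophages given emulsion particles, and the other 9 genes came in by name. The levels of *Fosl1* are therefore described without a test, and counts of members leave it out.

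RAW 264.7 cells, a mouse macrophage line, were given lipid emulsion particles, and their RNA was sequenced. Control cells were untreated, so the particles were not matched by a vehicle with the emulsifier. Particles of the size of very low density lipoprotein (VLDL-sized, labelled VLDLsep) and of chylomicrons (CHYL-sized, labelled CHYLsep) were each given at 1 mM for 6 hours by the sample labels. The methods of the study also give 1 mM for both particles. A supplementary legend of the study gives a lower dose of CHYL-sized particles for these cells, and where that holds the particles were compared at unequal doses. Both were made from sunflower oil with sodium caseinate as emulsifier. Each group had 3 libraries, numbered 1 to 3, each made from pooled samples of 1 experiment. The libraries held 22393893 to 22856792 estimated counts.

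FOS proteins do not pair with each other and need a JUN partner, while JUN proteins can pair among themselves. Many of these genes are immediate early genes, whose transcripts come and go quickly after growth factors or stress, and MAP kinases act both on their transcription and on the proteins. In macrophages AP-1 takes part in the control of inflammatory and differentiation genes. A transcript level does not give the amount or the phosphorylation of the protein.

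Libraries with the number 3 stood apart in every group. The median absolute log2 difference across the 12637 genes tested was 0.07 between control replicates 1 and 2, and 0.14 between control replicate 3 and each of them. The corresponding values in the VLDL-sized group were 0.09 for replicates 1 and 2, and 0.15 for replicate 3 against either. In the CHYL-sized group they were 0.09, 0.15 and 0.14. Tests of the members were therefore also run without these libraries.

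Of the 10 members, 8 had more than 10 counts in at least 3 libraries and were tested. *Fosl1* passed this filter through the treated libraries alone, and *Fosb* and *Batf* did not pass. Levels are given as cpm, counts scaled to a common library size after correction for composition by TMM, and as cpm per kilobase of annotated exon where genes are compared with each other. A gene was called where limma-voom, a test fitted across all genes, gave an adjusted p under 0.05. These p values measure the spread between these libraries. In bulk RNA, fewer cells that express a gene and less RNA per cell cannot be told apart. Each test was repeated under up to 18 other settings, named below as alternatives.

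The family's transcripts were mostly those of the JUN subfamily. *Jund* had the highest level, 91.7 ± 3.04 cpm per kilobase in control cells (SD, n = 3), followed by *Junb* at 39.0 ± 5.82 and *Jun* at 32.4 ± 1.69. *Jdp2* was at 13.1 ± 0.786, *Fos* at 4.32 ± 0.174, *Fosl2* at 2.60 ± 0.325 and *Batf3* at 1.10 ± 0.242 cpm per kilobase. In control cells no library of these 7 genes overlapped with the libraries of the next gene in this order. After VLDL-sized particles *Fos*, at 2.33 ± 0.757, overlapped with *Fosl2*, at 2.83 ± 0.0954 cpm per kilobase, and also with *Batf3* and *Fosl1*, at 1.81 ± 0.210 and 1.32 ± 0.274. The overlap with *Batf3* and *Fosl1* came from replicate 3 alone, where *Fos* was at 1.51, against 2.48 and 3.00 in replicates 1 and 2, while that with *Fosl2* was there without it. The overlap with *Fosl2* depended on the gene length used. With the longest transcript in place of all annotated exons, *Fosl2* made up 1.96%, 2.05% and 2.27% of the family's sum in VLDL-sized libraries. *Fos* then made up 1.25%, 1.69% and 0.915%, below *Fosl2* and without overlap. After CHYL-sized particles *Fos* and *Fosl2* overlapped as well, at 3.40 ± 0.855 and 2.65 ± 0.123 cpm per kilobase, and so did *Batf3* and *Fosl1*, at 1.80 ± 0.364 and 1.36 ± 0.883. Neither of these pairs overlapped without CHYL-sized replicate 3.

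Of the FOS subfamily, *Fosl1* encodes FRA-1, a FOS protein without the strong activation domain of c-FOS. It lies on chromosome 19 (ENSMUSG00000024912, GRCm38 chr19:5447547-5455946, plus strand). The control libraries held 1, 0 and 2.02 estimated counts of *Fosl1*. Libraries from cells given VLDL-sized particles held 62.7, 45.9 and 68.9 counts, or 2.86, 2.06 and 3.14 cpm. Those given CHYL-sized particles held 40.2, 37.2 and 106 counts, or 1.78, 1.67 and 4.84 cpm. *Fosl1* was near 0 in each control library and present in each treated one, and its highest value was that of CHYL-sized replicate 3.

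Summed over libraries, 3 counts of *Fosl1* in control cells stood against 178 after VLDL-sized particles, a ratio of 63.5 with a 95% counting interval from 21.4 to 311. Against the CHYL-sized group, with 183 counts, the ratio was 64.8 with an interval from 21.8 to 317. These intervals (exact, Clopper-Pearson) cover counting error only and take the deposited values as counts. They leave out the spread between libraries, so their lower ends are lower limits of the fold for counting error alone. Since *Fosl1* chose the family, they are no test of its rise. Without replicate 3 the ratios were 117 (20.6 to 4673) for VLDL-sized and 81.7 (14.2 to 3267) for CHYL-sized particles. Leaving out 1 library or 1 replicate number moved the ratio for VLDL-sized particles from 42.3 without control replicate 2 to 128 without control replicate 3, and that for CHYL-sized particles from 40.6 without CHYL-sized replicate 3 to 130 without control replicate 3. The lowest lower ends were then 14.2 and 13.4. The VLDL-sized and CHYL-sized groups overlapped. *Fosl1* was 1.61 and 1.23 times as high with VLDL-sized as with CHYL-sized particles in replicates 1 and 2, and 0.649 times as high in replicate 3. The gene shares 1163 exonic bases with *Ccdc85b* on the opposite strand. Whether the libraries kept the strand is not given in the sources used here, so reads from those bases cannot be told apart. *Ccdc85b* had 351 to 413 counts in the control libraries, where *Fosl1* had 0 to 2.02, and 330 to 447 in the treated ones.

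*Fos* encodes c-FOS, the first described member of the subfamily (ENSMUSG00000021250, chr12:85473890-85477273, plus strand). It stood at 10.0, 9.86 and 10.6 cpm in control replicates 1, 2 and 3. With VLDL-sized particles it stood at 5.84, 7.05 and 3.55 cpm. With CHYL-sized particles it stood at 8.51, 9.72 and 5.79 cpm. All treated libraries lay below the control libraries, although CHYL-sized replicate 2 lay just under them, and replicate 3 was the lowest of each treated group. *Fos* fell after VLDL-sized particles, with a log2 fold change of −0.94 ± 0.23 (SE; limma-voom adjusted p = 0.0093). Without replicate 3 the log2 fold change was −0.63 (limma-voom adjusted p = 0.0013), and without replicate 1 the call was lost at a log2 fold change of −1.03 (limma-voom adjusted p = 0.077, the highest of 18 alternatives, whose lowest was 0.00090). For CHYL-sized particles the log2 fold change of *Fos* was −0.37, with a 95% confidence interval from −0.84 to 0.09 (limma-voom adjusted p = 0.23). Without replicate 3 it was −0.13 (limma-voom adjusted p = 0.44, where 18 alternatives ranged from 0.13 to 0.61).

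The levels of *Fosl1* and *Fos* were nearer to each other in treated than in control libraries. This holds the rise of *Fosl1* by which the family was chosen, so the ratios are a description only. Per kilobase, the level of *Fosl1* was 0.567, 0.338 and 1.02 times that of *Fos* in VLDL-sized replicates 1, 2 and 3. The same ratio was 0.242, 0.199 and 0.966 in the CHYL-sized replicates. In control replicates it was 0.00486, 0 and 0.00944. The level of *Fosl1* was close to that of *Fos* in replicate 3 of both treated groups and well below it in the others.

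*Fosl2* encodes FRA-2, a relative of FRA-1 (ENSMUSG00000029135, chr5:32135801-32157842, plus strand). Its control libraries were at 27.6, 26.2 and 21.6 cpm, those with VLDL-sized particles at 28.4, 26.6 and 27.3 cpm, and those with CHYL-sized particles at 26.3, 26.4 and 24.3 cpm. Apart from the lower control replicate 3, the libraries lay close together, and both treated groups overlapped with control. The log2 fold change was 0.13 (95% confidence interval −0.07 to 0.33) for VLDL-sized particles, and 0.025 to 0.20 over 18 alternatives, with the lowest values without control replicate 3 and without replicate 3 (0.028). It was 0.04 (−0.16 to 0.24) for CHYL-sized particles, where its sign turned without replicate 3 (−0.03) and without control replicate 3 (−0.07). Scaling by library size only gave −0.04, but this scaling also moved the median of all genes to −0.079. *Fosb* (ENSMUSG00000003545, chr7:19302696-19310051, minus strand) had 0 to 6 counts in any library. No difference in *Fosb* could be detected at this depth.

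As a whole, the FOS subfamily added up to 6.97 ± 0.170 cpm per kilobase in control cells, 6.50 ± 0.537 after VLDL-sized and 7.43 ± 0.251 after CHYL-sized particles. *Fos* made up 59.5%, 60.5% and 66.3% of it in the control libraries, 36.2%, 44.4% and 25.6% in the VLDL-sized ones and 50.1%, 53.6% and 33.4% in the CHYL-sized ones. *Fosl1* made up at most 0.626% in control libraries, 15.0% to 26.2% with VLDL-sized and 10.7% to 32.3% with CHYL-sized particles. The share of *Fosl2* ranged from 32.7% to 47.9% over the 9 libraries. These shares depend on the gene length used, here 9680 bases of annotated exon for *Fosl2*, whose longest transcript has 6537 bases. The family was chosen through *Fosl1*, whose higher level by itself lowers the other shares. With *Fosl1* left out of the sum, *Fos* made up 59.7%, 60.5% and 66.7% in the control libraries, 45.5%, 52.2% and 34.7% in the VLDL-sized ones and 57.0%, 60.0% and 49.4% in the CHYL-sized ones, which then overlapped with control.

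Of the JUN subfamily, *Jun* encodes c-JUN, the partner through which most FOS proteins bind DNA (ENSMUSG00000052684, chr4:95049034-95052222, minus strand). Its level was 105, 97.2 and 108 cpm in control libraries, 107, 104 and 91.3 cpm with VLDL-sized particles and 99.3, 93.9 and 85.6 cpm with CHYL-sized particles. The groups overlapped, and the lowest library of each treated group was replicate 3. The log2 fold change was −0.04 (95% confidence interval −0.20 to 0.13) for VLDL-sized particles, where its sign turned without replicate 3 (0.06) or VLDL-sized replicate 3 alone (0.03), and −0.15 (−0.32 to 0.01) for CHYL-sized particles, where it was −0.064 without replicate 3. Over 18 alternatives it ran from −0.13 to 0.064 and from −0.23 to −0.064. *Jun* shares 232 exonic bases with the antisense gene *Junos*, which had at most 7.13 counts.

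*Junb* encodes a JUN protein that is a weaker activator than c-JUN and can oppose it (ENSMUSG00000052837, chr8:84974484-84978718, minus strand). Control libraries were at 83.8, 80.2 and 105 cpm. Libraries with VLDL-sized particles were at 112, 104 and 103 cpm, and those with CHYL-sized particles at 97.5, 111 and 112 cpm. Treated libraries lay above control replicates 1 and 2, and control replicate 3 lay among them. The log2 fold change was 0.25 ± 0.10 for VLDL-sized (limma-voom adjusted p = 0.064) and 0.26 ± 0.10 for CHYL-sized particles (limma-voom adjusted p = 0.068), past the threshold for neither. Without replicate 3 it was 0.39 (limma-voom adjusted p = 0.00024, where 18 alternatives ranged up to 0.38) and 0.35 (limma-voom adjusted p = 0.00097, up to 0.48). Leaving out control replicate 3 alone also brought both past the threshold, at 0.37 and 0.38. Over 18 alternatives the log2 fold change ran from 0.16 to 0.39 and from 0.16 to 0.38, past the threshold in 3 for each particle. *Junb* shares 173 exonic bases with *Prdx2* on the opposite strand, which had 3335 to 3592 counts in the 9 libraries.

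*Jund* encodes the JUN protein that is present in most resting cells (ENSMUSG00000071076, chr8:70698949-70700616, plus strand). Control libraries were at 154, 147 and 157 cpm. Libraries with VLDL-sized particles were at 166, 141 and 122 cpm, and those with CHYL-sized particles at 125, 136 and 120 cpm. The VLDL-sized libraries spread to both sides of control, while the CHYL-sized ones all lay below it. The log2 fold change was −0.11 (95% confidence interval −0.31 to 0.10) for VLDL-sized particles and turned to 0.02 without replicate 3, and it was just above 0 without VLDL-sized replicate 3 alone and as low as −0.22 without VLDL-sized replicate 1 alone. For CHYL-sized particles it was −0.27 ± 0.09 and missed the threshold (limma-voom adjusted p = 0.058), which it passed in 5 of 18 alternatives (adjusted p from 0.0091 to 0.15), among them DESeq2, library size only, a fit of the 2 groups alone and the fit without replicate 3. *Jund* shares 877 of its 1668 exonic bases with the antisense gene *Gm11175*, which had 65.5 to 139 counts.

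*Batf3* encodes a short factor that pairs with JUN proteins and lacks an activation domain of its own (ENSMUSG00000026630, chr1:191097847-191108945, plus strand). It was a low gene, with 51, 42 and 32 counts in the control libraries. The VLDL-sized libraries held 63, 57 and 71 counts and the CHYL-sized ones 50, 68 and 73. In cpm these were 2.14, 1.77 and 1.37 for control, 2.88, 2.56 and 3.23 for VLDL-sized and 2.22, 3.06 and 3.33 for CHYL-sized particles. Treated libraries lay above control ones, with CHYL-sized replicate 1 only just above control replicate 1. *Batf3* rose with a log2 fold change of 0.72 ± 0.22 after VLDL-sized particles (limma-voom adjusted p = 0.027) and 0.69 ± 0.22 after CHYL-sized particles (limma-voom adjusted p = 0.042). The call was kept in 10 of 18 alternatives for VLDL-sized (adjusted p from 0.019 to 0.12) and in 9 of 18 for CHYL-sized particles (0.019 to 0.25). Leaving out control replicate 2 or 3 alone, replicate 2, or the filter on low counts ended it for both particles, as did leaving out VLDL-sized replicate 1 or 3 alone or replicate 1 for VLDL-sized, and CHYL-sized replicate 2 or 3 alone for CHYL-sized particles. Library size only and a fit of only those 2 groups ended it for CHYL-sized particles. In the fits that lost the call the log2 fold change was 0.47 to 0.87 for VLDL-sized and 0.41 to 0.71 for CHYL-sized particles. Without replicate 3 it was lost in both, with log2 fold changes of 0.47 (limma-voom adjusted p = 0.12) and 0.41 (limma-voom adjusted p = 0.20).

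*Jdp2* encodes a factor that pairs with JUN proteins and represses transcription (ENSMUSG00000034271, chr12:85599027-85639878, plus strand). Control libraries were at 27.8, 26.6 and 29.9 cpm. Libraries with VLDL-sized particles were at 25.1, 21.1 and 24.1 cpm, and those with CHYL-sized particles at 24.5, 24.1 and 25.3 cpm. Every treated library lay below every control library. *Jdp2* fell after VLDL-sized particles, with a log2 fold change of −0.27 ± 0.08 (limma-voom adjusted p = 0.022), a call kept in 12 of 18 alternatives (adjusted p from 0.0031 to 0.13) and lost with no filter, without replicate 1 or 2, and without control replicate 1 or 3 or VLDL-sized replicate 2 alone, at log2 fold changes from −0.33 to −0.19. For CHYL-sized particles the log2 fold change was −0.19 ± 0.08 (limma-voom adjusted p = 0.099), which passed in 2 of 18 alternatives, library size only among them (0.018, with a highest value of 0.30). *Jdp2* shares 165 exonic bases with *Gm47863* on the opposite strand, which had 31 to 48 counts. *Batf* (ENSMUSG00000034266, chr12:85686669-85709087, plus strand) had no count in any library, which allows up to 0.126 to 0.137 cpm per library (3 counts). *Fos*, *Jdp2* and *Batf* are neighbours on chromosome 12, with gaps of 121753 and 46790 bases.

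**Figure D1:**
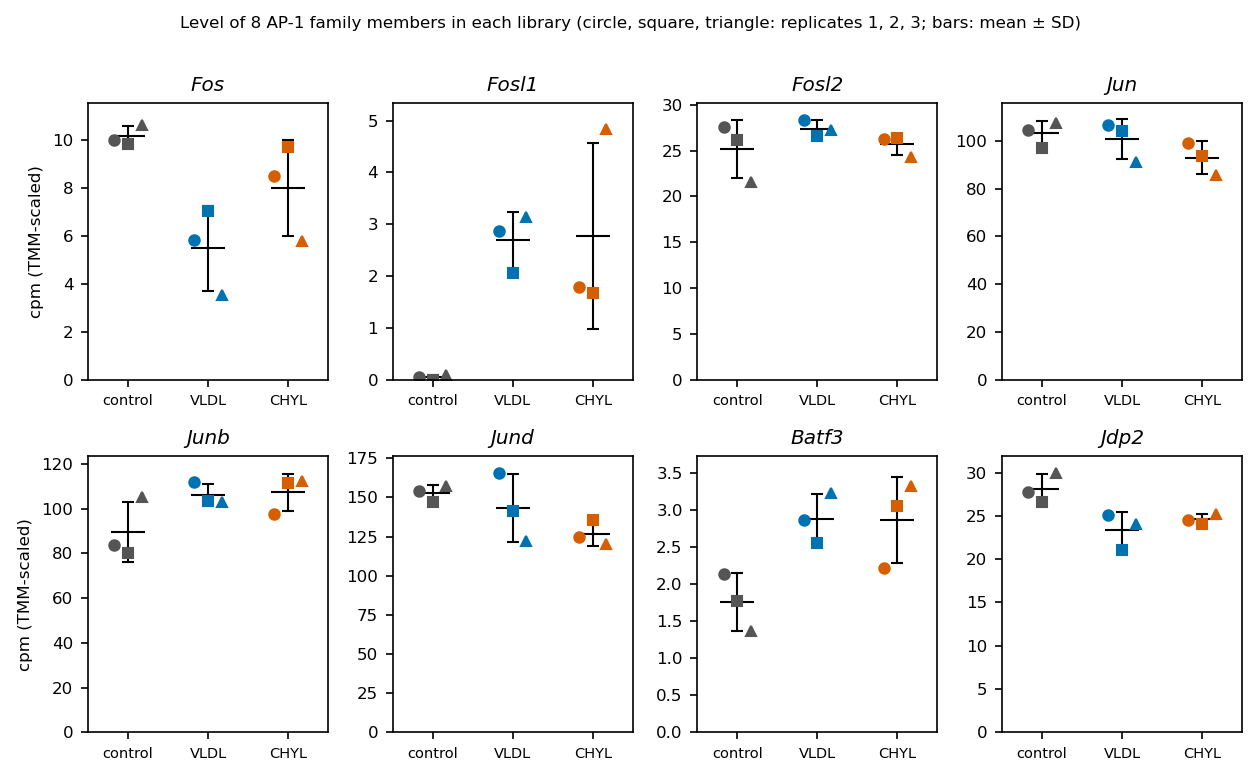
Level of the 8 members that passed the filter, in TMM-scaled cpm on linear axes from 0, for the 3 control, 3 VLDL-sized and 3 CHYL-sized libraries; circles, squares and triangles are replicates 1, 2 and 3, and bars give the mean ± SD. *Fosl1* is near 0 in control cells and at 1.67 to 4.84 cpm in treated ones, *Fos* and *Jdp2* lie lower in every treated library, *Batf3* lies higher, *Jund* lies lower with CHYL-sized particles alone, and the groups of *Fosl2*, *Jun* and *Junb* overlap with control.

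Of the 7 members tested other than *Fosl1*, limma-voom called 3 after VLDL-sized particles. *Batf3* was higher, where 17.8% of all genes tested were called higher, and *Fos* and *Jdp2* were lower, where 17.9% were called lower. After CHYL-sized particles it called 1 member, *Batf3*, where 12.7% of all genes were called higher and 13.0% lower. Nothing is read from these counts, since the family came in through *Fosl1* in the same comparisons. Without replicate 3, *Junb* was called higher and *Fos* and *Jdp2* lower after VLDL-sized particles (22% of all genes higher, 21.4% lower). After CHYL-sized particles *Junb* was then higher and *Jund* lower (17.4% of all genes higher, 16.4% lower). Treated and control libraries did not overlap for *Fos*, *Batf3* and *Jdp2* with VLDL-sized particles, against 47.4% of all genes tested. With CHYL-sized particles they did not overlap for *Fos*, *Jund*, *Batf3* and *Jdp2*, against 41.7% of all genes. Both comparisons use the same control libraries.

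**Figure D2:**
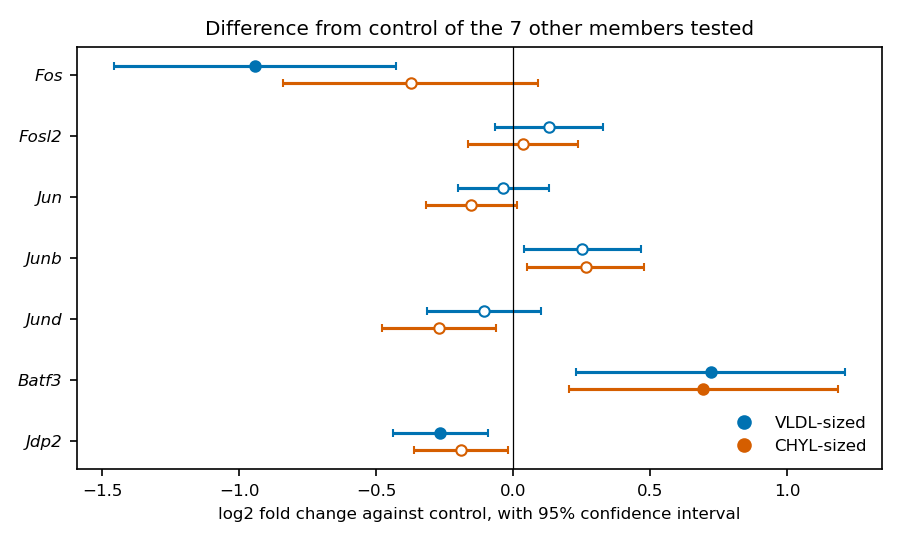
Log2 fold change against control with its 95% confidence interval for the 7 members tested other than *Fosl1*, from limma-voom, for VLDL-sized and CHYL-sized particles; filled points passed an adjusted p of 0.05. *Fos*, *Batf3* and *Jdp2* have filled points for VLDL-sized particles and *Batf3* alone for CHYL-sized particles.

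The VLDL-sized and CHYL-sized groups were also compared directly. Limma-voom called 0 of the 12637 genes (0%), with 813 at an unadjusted p under 0.05. The edgeR quasi-likelihood test also called 0, DESeq2 called 24, and limma-voom called 2.07% of genes without replicate 3. No member was called under any of these. The widest gap among the members tested was that of *Fos*, which was lower with VLDL-sized particles by a log2 value of −0.57 (95% confidence interval −1.11 to −0.03, limma-voom adjusted p = 0.77; log2 values from −0.78 to −0.29 and adjusted p from 0.076 to 1.0 over 17 alternatives). The level of *Fos* with VLDL-sized particles was 0.687, 0.726 and 0.613 times that with CHYL-sized particles in replicates 1, 2 and 3, although the groups overlapped. Only *Fosl2* did not overlap, at 26.6 to 28.4 cpm with VLDL-sized and 24.3 to 26.4 cpm with CHYL-sized particles. Its log2 value was 0.09 (limma-voom adjusted p = 0.93). The share of all genes without overlap is not given for this comparison, so nothing is read from it. The fall of *Fos* past the threshold with VLDL-sized particles alone is thus not shown to differ from its value with CHYL-sized particles.

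Summed over all 10 members, the family stood at 184 ± 10.6 cpm per kilobase in control cells, 183 ± 18.1 after VLDL-sized and 172 ± 6.56 after CHYL-sized particles. The JUN subfamily made up 87.5% to 89.9% of this sum in every library. Within it, *Junb* took 19.9%, 20.0% and 23.4% of the family's sum in control libraries, 24.1%, 24.9% and 27.0% in VLDL-sized and 25.2%, 26.9% and 28.9% in CHYL-sized libraries. The share of *Junb* was higher in every treated library than in any control library, but shares of 1 sum depend on each other. In VLDL-sized replicate 3 *Junb* itself was at 44.7 cpm per kilobase, below control replicate 3 at 45.6, and the family's sum was 166 against 195. *Jund* took 50.5%, 50.7% and 48.3% in control, 49.2%, 46.9% and 44.2% in VLDL-sized and 44.4%, 45.2% and 42.7% in CHYL-sized libraries. Its share lay below control in each CHYL-sized library and overlapped with control in the VLDL-sized ones. *Fosl1* took at most 0.930% of the sum with VLDL-sized particles and 1.41% with CHYL-sized particles. With the longest transcript in place of the exon union, the share of *Junb* was 24.6% in control, 29.2% in VLDL-sized and 31.0% in CHYL-sized libraries, and that of *Jund* 45.7%, 42.5% and 39.8%. No test was run on shares.

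**Figure D3:**
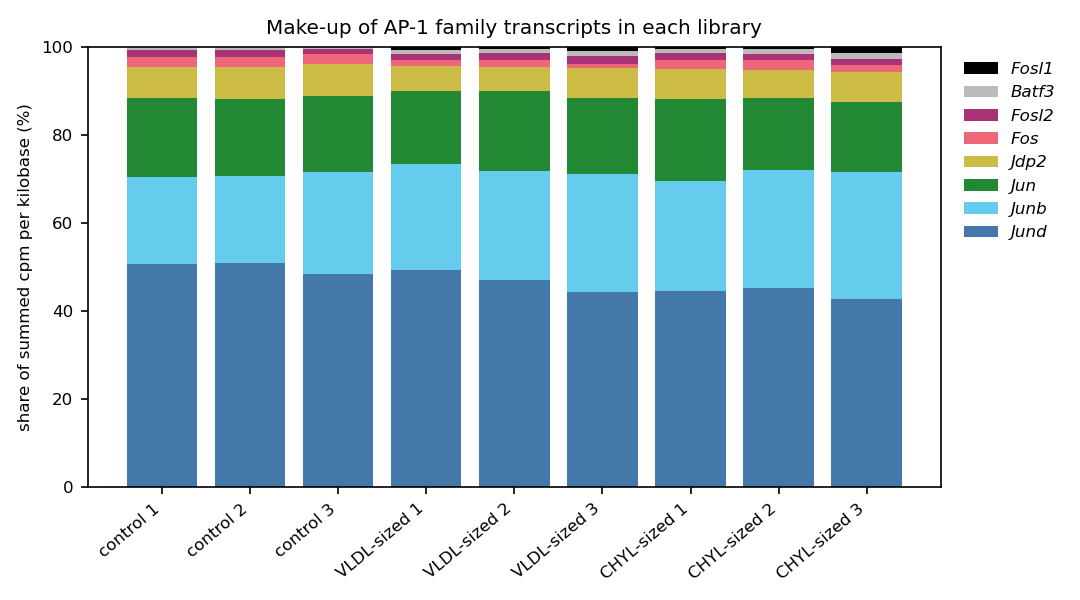
Share of each member in the family's summed cpm per kilobase of exon, in percent, as stacked bars from 0 to 100 for each of the 9 libraries; *Fosb* and *Batf*, at or near 0, are not drawn. *Jund*, *Junb* and *Jun* fill 87.5% to 89.9% of each bar, the *Junb* part is 19.9% to 23.4% in control and 24.1% to 28.9% in treated libraries, and *Fosl1* is at most 1.41%.

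The 5 genes whose log2 cpm followed that of *Fosl1* most closely over the 9 libraries were *Tpm1*, *Fn1*, *Ptgir*, *Tmem43* and *Bin2*. Pearson's r was 0.997 for the first 2 of these, 0.995 for *Ptgir* and *Tmem43*, and 0.994 for *Bin2*. Taken as deviations from the group means, r was 0.895 to 0.963 for the same genes. These values are descriptions over libraries of 3 groups. The genes were ranked among all 12637 tested over the same 9 libraries, so high values of r follow in part from the ranking. That holds for the deviations as well. *Tpm1*, a tropomyosin, was at 96.2 ± 4.01 cpm in control cells, 143 ± 5.76 after VLDL-sized and 144 ± 11.2 after CHYL-sized particles. *Fn1*, fibronectin, was at 8.45 ± 0.966, 22.2 ± 1.47 and 21.0 ± 3.73 cpm. *Ptgir*, the prostacyclin receptor, was at 69.4 ± 4.55, 109 ± 3.87 and 106 ± 7.21 cpm. For *Jund*, the member with the highest level per kilobase, the 5 genes were *Prrc2a*, *Mxd1*, *Fhit*, *R3hdm2* and *Nlgn2*, with r from 0.898 to 0.935.

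Among 12 other basic leucine zipper genes, 11 were tested. The calls with VLDL-sized particles were 4 higher and 2 lower, and with CHYL-sized particles 3 higher and 2 lower, beside 17.8% and 17.9% of all genes tested for VLDL-sized and 12.7% and 13.0% for CHYL-sized particles. The median log2 fold change was 0.07 and −0.03, beside 0.00 for all genes in both. *Atf3*, a stress-induced partner of JUN proteins, had the highest mean cpm of the list. It was at 104, 108 and 216 cpm in control libraries, 400, 373 and 488 with VLDL-sized and 293, 274 and 413 with CHYL-sized particles. *Atf3* rose by a log2 fold change of 1.64 ± 0.25 after VLDL-sized particles (limma-voom adjusted p = 0.00055) and 1.26 ± 0.25 after CHYL-sized particles (limma-voom adjusted p = 0.0043, lost in 2 of 18 alternatives at log2 fold changes of 1.13 and 1.21). *Maf*, the c-MAF factor of macrophages, fell from 115 ± 25.2 cpm to 16 ± 6.47 and 26.3 ± 11.3, with log2 fold changes of −2.91 ± 0.37 (limma-voom adjusted p = 0.00017) and −2.21 ± 0.33 (limma-voom adjusted p = 0.00074). *Maff*, a small MAF factor, rose from 2.39 ± 0.315 cpm to 6.59 ± 0.120 and 5.29 ± 0.373. *Nfe2l2*, which encodes NRF2, was at 284 ± 55.3, 254 ± 11.7 and 259 ± 21.0 cpm and was not called.

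Of 31 genes of the MAP kinase cascades upstream of AP-1, 29 were tested, and 5 were called higher and 5 lower in each comparison with control. Of all genes, 17.8% were called higher and 17.9% lower for VLDL-sized and 12.7% and 13.0% for CHYL-sized particles. The median log2 fold change of the list was −0.02 for VLDL-sized and 0.02 for CHYL-sized particles (all genes 0.00). *Mapkapk2*, a kinase downstream of p38, had the highest mean cpm of the list. It was at 427 ± 50.8 cpm in control cells, 380 ± 23.3 after VLDL-sized and 395 ± 21.2 after CHYL-sized particles, and was not called. That held in 15 of 18 alternatives for VLDL-sized and in 18 of 18 for CHYL-sized particles. *Map2k6*, a kinase that activates p38, fell from 7.94 ± 0.905 cpm to 2.67 ± 0.296 and 2.65 ± 0.393. *Map3k5*, the stress kinase ASK1, fell from 14.8 ± 0.733 to 7.13 ± 0.846 and 8.51 ± 0.476 cpm. The log2 fold changes after VLDL-sized particles were −1.56 ± 0.16 for *Map2k6* and −1.05 ± 0.10 for *Map3k5*, with limma-voom adjusted p values of 3.2e-05 and 2.5e-05.

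A list of 10 factors that bind the *Fos* and *Jun* promoters was tested in full. VLDL-sized particles gave 3 calls higher and 3 lower, and CHYL-sized particles 1 and 3, beside 17.8% and 17.9% of all genes for the former and 12.7% and 13.0% for the latter. The median log2 fold changes were 0.02 and −0.02 (all genes 0.00). *Srf*, serum response factor, was at 92.3, 83.9 and 86.4 cpm in control libraries, 59.4, 52.7 and 47.3 with VLDL-sized and 71.3, 78.6 and 61.6 with CHYL-sized particles. Its groups did not overlap with control, and it fell by a log2 fold change of −0.72 ± 0.10 after VLDL-sized particles (limma-voom adjusted p = 0.00025) and −0.32 ± 0.10 after CHYL-sized particles (limma-voom adjusted p = 0.032, lost in 7 of 18 alternatives at log2 fold changes from −0.43 to −0.22). *Elk3*, a ternary complex factor that works with SRF, fell from 55.6 ± 7.16 cpm to 30.8 ± 2.71 and 34.2 ± 2.85. *Mef2c* fell from 173 ± 2.72 cpm to 86.0 ± 11.9 and 105 ± 6.78. *Mef2a*, the most abundant of the list by mean cpm, was at 268 ± 23.5, 223 ± 31.8 and 238 ± 23.2 cpm and was not called. That held in 14 of 18 alternatives for VLDL-sized and in 16 of 18 for CHYL-sized particles.

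Of 10 regulators of FOS and JUN proteins, all were tested, with 5 calls higher and 0 lower for VLDL-sized particles and 3 and 0 for CHYL-sized particles. The shares of all genes called were 17.8% higher and 17.9% lower for VLDL-sized and 12.7% and 13.0% for CHYL-sized particles. The median log2 fold change of the regulators was 0.17 and 0.10, that of all genes 0.00 in both. *Cop1*, a ubiquitin ligase for c-JUN, rose from 88.4 ± 1.5 cpm to 114 ± 1.85 and 111 ± 2.39. *Fbxw7*, another ligase subunit for c-JUN, rose from 21.8 ± 1.29 to 28.9 ± 1.56 cpm after VLDL-sized particles (limma-voom adjusted p = 0.0044, lost in 1 of 18 alternatives at 0.059) and was at 25.0 ± 2.70 after CHYL-sized particles, where it was not called. *Crebbp*, a coactivator, rose from 36.1 ± 2.38 to 46.1 ± 1.32 and 41.4 ± 1.12 cpm, a call lost in 10 of 18 alternatives for CHYL-sized particles. *Ncor1* and *Ep300*, the most abundant of the list by mean cpm, were not called. With VLDL-sized particles *Ncor1* had a log2 fold change of 0.16 (limma-voom adjusted p = 0.055) and was not called in 14 of 18 alternatives. DESeq2 and the fit without replicate 3 were among those that called it higher.

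Of 20 textbook AP-1 targets, 16 were tested. VLDL-sized particles gave 6 calls higher and 4 lower, and CHYL-sized particles 4 and 3, where 17.8% of all genes were higher and 17.9% lower with VLDL-sized and 12.7% and 13.0% with CHYL-sized particles. The median log2 fold change of the list was 0.04 and 0.07 (all genes 0.00). *Hmox1*, heme oxygenase 1, also a target of NRF2, was at 203, 252 and 334 cpm in control libraries, 7097, 6440 and 7806 with VLDL-sized and 4656, 5045 and 7015 with CHYL-sized particles. Each treated library held at least 4656 cpm of *Hmox1*, far above control, and the log2 fold changes were 4.78 ± 0.18 (limma-voom adjusted p = 3.9e-08) and 4.41 ± 0.18 (limma-voom adjusted p = 9.0e-08). *Mmp12*, macrophage elastase, rose from 1038 ± 178 cpm to 2411 ± 389 and 2246 ± 566. *Ccnd1*, cyclin D1, fell from 500 ± 46.1 cpm to 189 ± 38.3 and 256 ± 53.2. *Vegfa* was at 0.311 ± 0.148, 0.757 ± 0.151 and 0.466 ± 0.194 cpm, from 4, 11 and 7 counts in control, 19, 13 and 18 in VLDL-sized and 7, 9 and 15 in CHYL-sized libraries. It passed the filter only through its VLDL-sized libraries, so its call, 1 of the 6 higher, follows in part from the filter and is not counted as a result.

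The cells carried the markers of macrophages. All 8 macrophage markers had more than 10 counts, with a summed level of 6475, 6541 and 6506 cpm in control libraries, 6008, 5964 and 5808 in VLDL-sized and 5985, 6172 and 5956 in CHYL-sized libraries. *Lyz2* was the most abundant, at 2307 cpm on average. Of these, 1 was called higher and 5 lower with VLDL-sized particles, and 0 and 2 with CHYL-sized particles (all genes 17.8% higher and 17.9% lower, and 12.7% and 13.0%). *Cd14* fell from 821 ± 27.6 cpm to 566 ± 18.3 and 595 ± 36.1, and *Fcgr1* from 70.1 ± 9.38 to 39.2 ± 1.96 and 43.5 ± 1.66 cpm. The marker called higher was *Cd68*, at 928 ± 18.9, 1044 ± 63.2 and 1017 ± 28.9 cpm, a call made for VLDL-sized particles alone and lost in 9 of 18 alternatives at log2 fold changes from 0.076 to 0.18. *Csf1r*, the receptor for macrophage colony-stimulating factor, was at 1351 ± 54.1, 1278 ± 51.5 and 1273 ± 32.8 cpm and was not called, and the calls of *Lyz2* and *Spi1* with VLDL-sized particles were lost in 7 and 4 of 18 alternatives. The 8 osteoclast markers summed to 46.1 to 55.4 cpm, mostly *Nfatc1*, and *Acp5* and *Calcr* were at or near 0. *Nfatc1* fell by log2 fold changes of −0.31 with both particles, and *Dcstamp* rose by 0.51 and 0.52, calls lost in 3 of 18 alternatives for VLDL-sized particles and in 6 and 4 for CHYL-sized particles. Of 5 T cell markers only *Lck* had more than 10 counts, of 5 B cell markers only *Ighm*, and of 5 fibroblast markers only *Pdgfra*. Their summed levels were 2.82 to 5.61, 8.12 to 27.6 and 1.5 to 2.53 cpm, and *Cd3e*, *Cd79a* and *Col3a1* were at or near 0. All 5 epithelial markers were at 0. *Lck* rose from 2.91 ± 0.0891 to 5.16 ± 0.280 cpm after VLDL-sized particles. After CHYL-sized particles *Lck* was at 3.89 ± 0.556 cpm and was not called (limma-voom adjusted p = 0.062, not called in 15 of 18 alternatives). *Ighm* fell from 22.2 ± 4.52 to 11.0 ± 4.19 and 10.7 ± 3.67 cpm, a call lost in 2 of 18 alternatives for each particle. *Pdgfra* was not called. Between the particles no gene of these lists was called. Their part in the results for the AP-1 genes was not tested.

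RefSeq promoters (GRCm38.p6, 250 bases before to 50 after the gene start) were found for 9 members, with 11 windows, 3 of them for *Jdp2*. The gene starts are those of RefSeq, and the windows of *Fosl2* (from 32136222), *Jund* (from 70697489), *Batf3* (from 191098164) and 2 of the 3 windows of *Jdp2* do not hold the annotated starts given above. No promoter was found for *Fosl1*. On both strands, none of the 11 windows held TGANTCA, the AP-1 site, which 7.81% of the 32851 promoters of this length held. None held TGACGTCA, the cyclic AMP response element (1.79% of all promoters), TGACNNNGC, the core of the antioxidant response element (12.4%), or a CArG box, the core of the serum response element (1.63%). The absence says only that these letters are not in these windows.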

How the data were processed

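RNA of 9 samples was sequenced as read pairs. The authors estimated transcript abundance with Salmon 0.14.1 (GRCm38.p6) and deposited estimated counts per gene. Their methods speak of scaled values, but 58.3% of the values above 10 are exactly whole and 73.1% lie within 0.001 of a whole number, so the values were taken as unscaled counts and used as they stand. Symbols, coordinates and exon lengths came by gene ID from GENCODE M21 (GRCm38), with 54346 of 54432 IDs matched. A gene was tested if it exceeded 10 counts in 3 or more of the 9 libraries (12637 genes). Counts were scaled by TMM (edgeR 4.0.16) and tested with limma-voom (limma 3.58.1, R 4.3.3) in 1 fit of 3 groups, with Benjamini-Hochberg adjustment over all genes tested, after a check on simulated data. Alternatives were edgeR's quasi-likelihood test and DESeq2 1.42.0 on rounded counts, limma-trend, scaling by library size or upper quartile, no filter or one of 50 counts, fits of 2 groups, the replicate number as a block, and leaving out each library and each replicate number. Named genes were taken from all 10 members, from each other list the 2 with the highest mean cpm and the 3 called genes with the largest log2 fold change for VLDL-sized particles, the 1 macrophage marker called higher, and the 5 genes closest in pattern to *Fosl1* and to *Jund*, and not every gene this rule gives is reported. Members and lists were chosen with earlier results of these data known.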

Additional observations from a re-analysis of the deposited data

How the results depend on the processing

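The log2 fold changes of the 7 members tested other than *Fosl1* kept their direction and their side of the threshold in 104 of 126 alternative fits for each particle against control, and in 113 of 122 for VLDL-sized against CHYL-sized particles. Leaving out 1 library or 1 replicate number gave ranges that crossed 0 for uncalled values. For VLDL-sized particles against control these ran from −0.11 to 0.064 for *Jun*, −0.22 to 0.020 for *Jund*, −0.23 to 0.012 for *Nfe2l2* and −0.10 to 0.011 for *Ep300*. For CHYL-sized particles they ran from −0.069 to 0.11 for *Fosl2*, −0.20 to 0.039 for *Nfe2l2* and −0.0028 to 0.093 for *Ncor1*. Between the particles they ran from −0.12 to 0.046 for *Junb*, −0.15 to 0.17 for *Batf3* and −0.16 to 0.61 for *Fosl1*. For CHYL-sized particles, library size only turned *Fosl2* to −0.043 and *Ncor1* to −0.027. The median of all genes moved from 0.00 to −0.079 with it, so these turns say nothing particular about either gene. *Fosl1* between the particles was at −0.031 with edgeR and −0.032 with DESeq2. The genes called were 4500 for VLDL-sized and 3249 for CHYL-sized particles, and leaving out libraries gave 2224 to 5380 and 1204 to 4182. Members called were then 0 to 3 (3 with all libraries) and 0 to 2 (1 with all libraries). No filter gave 1 and 0 members, and DESeq2 and library size only gave 2 each for CHYL-sized particles. Between the particles, leaving out libraries gave 0 to 257 genes, and DESeq2 gave 24 where limma-voom gave 0. The cause was not tested. With the longest transcript, 21 of 30 mean shares moved by more than 1 SD. Depth limits *Fosb*, *Batf* and the control level of *Fosl1*, at 0 to 6 counts.

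Samples of the same number are not said to share a source. Deviations from the group means correlated by 0.0286 to 0.357 between same-numbered libraries, over 0.1 in 7 of 9 pairs, and by −0.254 to 0.179 between others. Replicate 3 libraries correlated best with their own number, and those of replicates 1 and 2 did not all do so. The replicate block gave 6058 genes and 4 members for VLDL-sized, 4949 and 4 for CHYL-sized, and 147 and 0 between the particles, where *Fosl1* was at −0.054. It added *Junb* for both particles, and *Jund* and *Jdp2* for CHYL-sized particles.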
